A study of Mus musculus with 4 samples.

Results

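The stress keratins are keratin genes switched on in wounded or inflamed epidermis and made constitutively in parts of the hair follicle. The 5 genes described here, Krt6a, Krt6b and Krt75 of type II and Krt16 and Krt17 of type I, were taken by gene symbol from a table of 17958 genes, and all 5 were found and tested. RNA of samples labelled as mouse epidermal keratinocytes was sequenced in 4 libraries. Of these, 2 were labelled IL-36Ra-cKO, a conditional knockout of the IL-36 receptor antagonist that the genotype field calls a knockdown. The other 2 were labelled IL-36Rafl/fl, mice with floxed alleles whose genotype field reads WT, called fl/fl here. Treatment was given as none for all 4. The labels used here do not give the promoter that drives Cre, the age or sex of the mice, or whether animals were pooled.

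Keratins form the intermediate filaments of epithelial cells, and each filament needs a type I and a type II chain. Basal epidermal cells make Krt5 with Krt14, and differentiating cells make Krt1 with Krt10. Keratins 6, 16 and 17 are low in resting epidermis between the follicles and are induced at wound edges and in inflamed or hyperproliferative skin such as psoriasis. In mouse skin the same proteins are also made in the outer root sheath, companion layer and nail bed, and Krt75 marks the companion layer of the follicle. The series concerns aged skin, signalling through the IL-36 receptor and osteoarthritis, and IL-36 cytokines are known to activate keratinocytes.

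Total estimated counts were 14723409 and 14622791 in the cKO libraries and 15918854 and 16490602 in the fl/fl libraries, and the 5 stress keratins held 0.401% and 0.400% of them in the cKO libraries against 1.21% and 1.91% in the fl/fl libraries. Il1f5, the table's symbol for the targeted gene Il36rn, was not lost, with 3258 and 2508 counts in the cKO libraries against 3743 and 3489 counts in the fl/fl libraries, so directions given here are between libraries as labelled. Which part of the gene was read cannot be seen from these values. The Y-linked gene Ddx3y had 1575 and 2002 counts in the cKO libraries against 0 and 1 in the fl/fl libraries, so an apparent difference in sex and the genotype label cannot be told apart. Markers of keratinocytes were abundant in all 4 libraries (Krt14 at 9898 to 12810 TPM), but dermal and muscle genes were read as well. Summed TPM of 10 fibroblast markers was 1236 and 2117 in the cKO libraries against 1122 and 1413 in the fl/fl libraries, and that of 10 skeletal muscle markers 65.9 and 1741 against 134 and 167. Of 9 tested T cell markers 8 were higher at an unadjusted p under 0.05, beside 16.5% of all genes, with a summed TPM over 10 markers of 67.8 and 75.9 in the cKO libraries against 28.2 and 27.6 in the fl/fl libraries. The part of these other cells in the differences given here was not tested. TPM corrects counts for transcript length and library size and was used to set genes side by side. CPM corrects for library size only and was used to compare 1 gene between libraries. Separate animals or cultures are not stated for replicates, so the p-values reflect how far these particular samples vary, and that variation may be technical.

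Krt6a and Krt6b are neighbours with 0 protein-coding genes between them in the GENCODE M21 annotation (mouse build GRCm38), as are Krt16 and Krt17 in the type I cluster. Their sequences decide how far their counts can be separated. The coding sequences of Krt6a and Krt6b were 97.8% identical, with 37 differing bases among 1662 aligned and an identical run of 280 bases. Of all 100-base windows in the Krt6a transcript, 47.5% occurred letter for letter in another gene, most often Krt6b and the annotated gene Gm49428. For Krt6b the share was 30.6%, most often with Krt6a and Gm5478. Krt16 and Krt17 were 77.7% identical, and 24.3% of Krt16 windows occurred in another gene, most often the annotated gene Gm11597 and Krt14. For Krt17 0% of windows occurred in any other gene, and 0.947% of Krt75 windows occurred in the annotated gene Gm44460. With 50-base windows the shares were 62% for Krt6a, 50.1% for Krt6b, 37.6% for Krt16, 3.99% for Krt17 and 2.49% for Krt75. The values of Krt6a and Krt6b are therefore uncertain as a split of shared reads, and they are given as a sum as well. The stretch where both genes differ most, bases 787 to 876 of each coding sequence, is shown with its 12 differences in capitals (5′ to 3′, GENCODE M21):
Krt6a: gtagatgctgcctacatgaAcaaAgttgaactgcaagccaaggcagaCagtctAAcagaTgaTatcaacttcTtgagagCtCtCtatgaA
Krt6b: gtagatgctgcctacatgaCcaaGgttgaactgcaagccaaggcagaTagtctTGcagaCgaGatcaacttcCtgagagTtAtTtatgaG
Even the stretch in which Krt75 is most like Krt6a separates Krt75 from the pair. It spans bases 904 to 993 in Krt75 and 910 to 999 in Krt6a and Krt6b, and capitals mark the 4 bases in which Krt75 differs from Krt6a, while Krt6b has 0 differences from Krt6a there:
Krt75: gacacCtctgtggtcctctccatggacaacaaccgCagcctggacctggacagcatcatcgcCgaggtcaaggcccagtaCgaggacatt
Krt6b: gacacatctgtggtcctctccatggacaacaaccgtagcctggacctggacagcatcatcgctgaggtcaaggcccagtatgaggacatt
For the type I pair, the most different stretch had 30 differences in 90 bases (capitals), at bases 543 to 632 of Krt16 and 456 to 545 of Krt17:
Krt16: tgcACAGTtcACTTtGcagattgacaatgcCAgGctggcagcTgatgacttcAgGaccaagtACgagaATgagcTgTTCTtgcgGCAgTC
Krt17: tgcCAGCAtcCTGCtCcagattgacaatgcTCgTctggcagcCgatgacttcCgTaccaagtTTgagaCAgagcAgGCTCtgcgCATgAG

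All 5 stress keratins had lower levels in both cKO libraries than in either fl/fl library. The fitted difference was 5.75-fold for Krt6a, 5.91-fold for Krt6b, 5.97-fold for Krt75, 2.89-fold for Krt16 and 1.96-fold for Krt17. None of these passed the threshold adjusted over all genes. In such bulk RNA, fewer cells of a type and less RNA per cell cannot be told apart.

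Among the type II genes, Krt6a, whose protein is the main inducible type II keratin of mouse skin, had 487 and 624 TPM in the cKO libraries against 3011 and 4221 TPM in the fl/fl libraries. Both cKO values lay far under both fl/fl values, and the fl/fl libraries themselves differed. Log2 fold changes are given as cKO minus fl/fl. That of Krt6a was -2.52 ± 0.32 (SE, 95% interval -3.35 to -1.70, n = 2 libraries per group, adjusted p = 0.0669 from edgeR's quasi-likelihood test), a level 5.75-fold lower in cKO. Krt6b, its near-identical neighbour, had 419 and 522 TPM in the cKO libraries against 2622 and 3674 TPM in the fl/fl libraries. The same pattern held for it, with a log2 fold change of -2.56 ± 0.31 (SE, adjusted p = 0.0656 from edgeR's quasi-likelihood test). The TPM ratio of Krt6a over Krt6b stayed between 1.15 and 1.20 in all 4 libraries. Counted as 1 gene, the pair gave a log2 fold change of -2.54 (adjusted p = 0.0675, edgeR's quasi-likelihood test).

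Krt75, the companion layer keratin, was the rarest member and the one in which the cKO libraries disagreed most. It had 1201 and 177 counts in the cKO libraries against 3476 and 5521 in the fl/fl libraries, which is 31.7 and 4.71 TPM against 108 and 141 TPM. Both cKO libraries lay under both fl/fl libraries, but cKO replicate 2 lay far under cKO replicate 1. The log2 fold change was -2.58 ± 0.92 (SE, 95% interval -4.97 to -0.18, adjusted p = 0.142, edgeR's quasi-likelihood test). It was -4.58 without cKO replicate 1, where it passed the threshold (adjusted p = 0.0122, edgeR), and -1.77 without cKO replicate 2.

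Among the type I genes, Krt16, the inducible partner of keratin 6 and a clinical marker of psoriatic epidermis, had 1117 and 1219 TPM in the cKO libraries against 3493 and 4261 TPM in the fl/fl libraries. The cKO libraries were close to each other and well apart from the fl/fl libraries. Its log2 fold change was -1.53 ± 0.25 (SE, 95% interval -2.19 to -0.88, adjusted p = 0.0703, edgeR's quasi-likelihood test), a level 2.89-fold lower. Relative to Krt14, the basal type I keratin, the TPM ratio of Krt16 was 0.113 and 0.112 in the cKO libraries against 0.333 and 0.333 in the fl/fl libraries. Within each group that ratio differed by less than 0.01, although Krt14 itself ranged over the libraries. An exact two-sided permutation test of 2 against 2 libraries cannot go below p = 0.333, which this ratio reached.

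Krt17, which is made in the follicle and other appendages and binds the adaptor 14-3-3 sigma when induced in wounds, had 1075 and 659 TPM in the cKO libraries against 1595 and 2082 TPM in the fl/fl libraries. The groups did not overlap, but cKO replicate 1 was nearer to fl/fl replicate 1 than for any other member. Its log2 fold change was -0.97 ± 0.35 (SE, 95% interval -1.89 to -0.05, adjusted p = 0.145, edgeR's quasi-likelihood test). Without cKO replicate 2 it was -0.64, and without cKO replicate 1 it was -1.39.

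**Figure D1:**
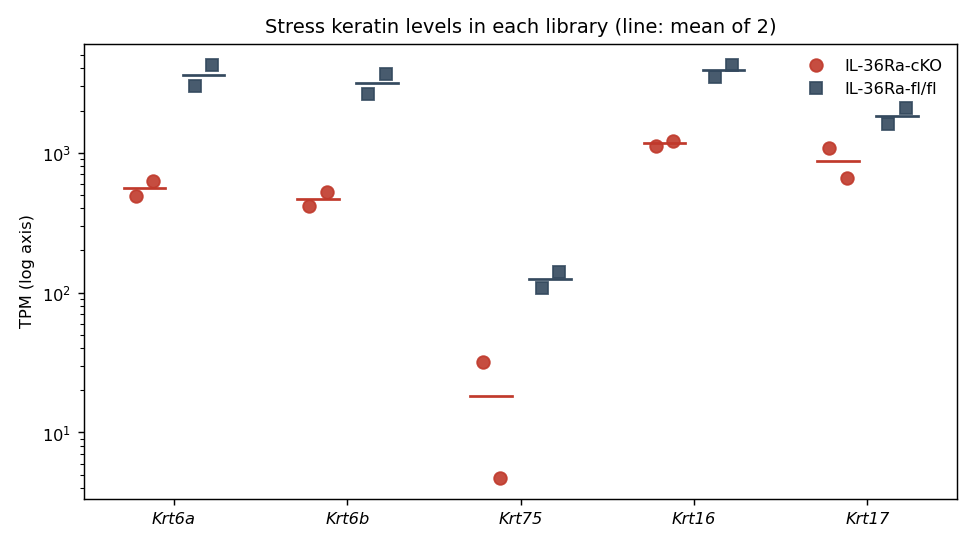
TPM of each stress keratin (log axis) in the 2 IL-36Ra-cKO libraries (circles, left of each pair) and the 2 IL-36Ra-fl/fl libraries (squares), with a line at each group's mean. The cKO values lie under the fl/fl values for all 5 genes, with the widest spread for Krt75 (31.7 and 4.71 TPM in cKO).

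The adjusted threshold was 0.05 over the 14459 genes tested, and 0 of 5 members passed it. Krt6a and Krt6b count separately here, although the split of their shared reads is uncertain. At that threshold edgeR called 4 genes in all, 0.0277% of those tested, and all 4 were higher in cKO: Ddx3y, Eif2s3y and Uty, which are Y-linked and go with the apparent difference in sex, and Mup22. At an unadjusted p under 0.05 in edgeR, 5 of 5 members were lower, beside 15.6% of all genes. DESeq2 called 4 of 5 lower, all but Krt75, beside 9.53% of the 14797 genes to which it gave an adjusted p (7.64% were called higher). By limma-voom 0 of 5 were called, beside 0% of all genes called lower. Both cKO libraries lay under both fl/fl libraries in CPM for 5 of 5 members, beside 32.9% of all genes. A log2 fold change of -1 or less was found for 4 of 5 members, beside 12.2% of all genes, and 1 or more for 0 of 5, beside 7.73%. Ordered by the log2 fold change from the lowest, Krt75 stood at place 236, Krt6b at 245, Krt6a at 256, Krt16 at 826 and Krt17 at 1837 of 14459. In the plot of fold change against level, Krt6a and Krt6b lay among the high-level genes with large differences. Krt77 did too, in the other direction (log2 fold change 2.18).

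**Figure D2:**
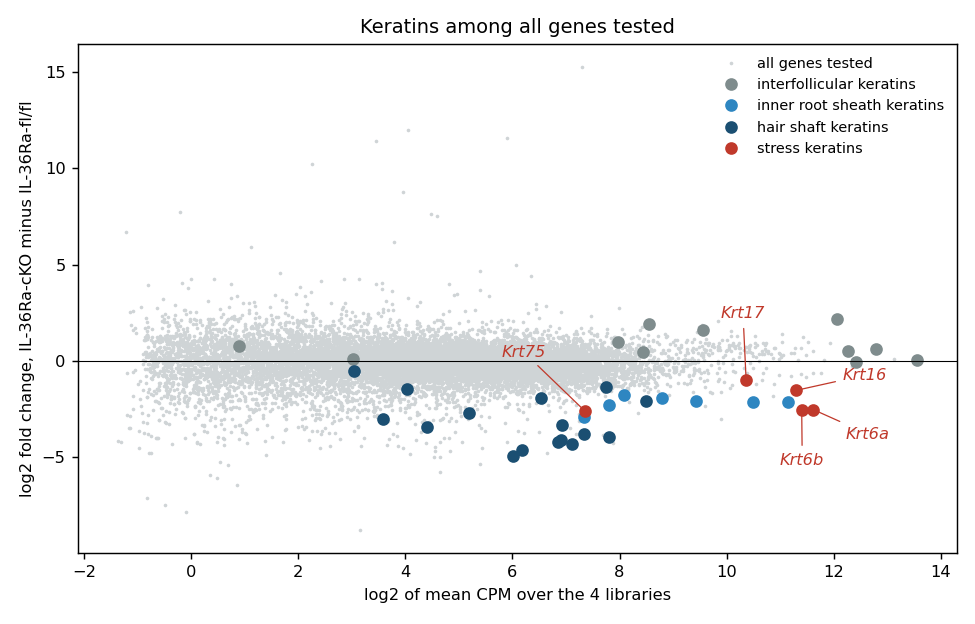
Log2 fold change (IL-36Ra-cKO minus IL-36Ra-fl/fl) against log2 mean CPM over the 4 libraries for all 14459 genes tested (grey) and 4 classes of keratin (colours). For most inner root sheath and hair shaft keratins, cKO replicate 2 lay at or near 0. Their fitted cKO level therefore rests mainly on cKO replicate 1. Krt6a and Krt6b lie at -2.52 and -2.56 at high level.

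The order of the members by TPM also differed between the groups. In the cKO libraries the means were 1168 ± 72.5 TPM for Krt16, 867 ± 294 for Krt17, 555 ± 97.3 for Krt6a, 470 ± 72.9 for Krt6b and 18.2 ± 19.1 for Krt75 (SD, n = 2). In the fl/fl libraries they were 3877 ± 543 TPM for Krt16, 3616 ± 855 for Krt6a, 3148 ± 744 for Krt6b, 1838 ± 344 for Krt17 and 124 ± 23.1 for Krt75 (SD, n = 2). Krt17 thus stood above Krt6a in both cKO libraries and below it in both fl/fl libraries. Neighbours whose values overlapped were Krt6a and Krt6b in the cKO group, and Krt16, Krt6a and Krt6b in the fl/fl group.

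Type II and type I stress keratin transcripts were not in the same proportion in both groups. Summed TPM of Krt6a, Krt6b and Krt75 over that of Krt16 and Krt17 was 0.428 and 0.613 in the cKO libraries against 1.13 and 1.27 in the fl/fl libraries. Krt6a and Krt6b together stood at 0.264 and 0.314 of Krt5, the basal type II keratin, in the cKO libraries, against 1.98 and 2.87 of Krt5 in the fl/fl libraries. In fl/fl, therefore, the Krt6 pair outnumbered Krt5 per length, and in cKO it did not. The ratio of Krt16 over Krt17 was 1.04 and 1.85 in the cKO libraries against 2.19 and 2.05 in the fl/fl libraries. None of these ratios overlapped between the groups, and the exact two-sided permutation p was 0.333 for each, the smallest that 2 against 2 libraries can give.

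As a share of all keratin transcripts, the 5 genes made up 8.86% and 9.99% of the summed TPM of 54 keratin genes in the cKO libraries against 24.4% and 29.99% in the fl/fl libraries. The 12 listed keratins of epidermis between follicles took 80.5% and 89.4% in the cKO libraries against 55.4% and 47.2% in the fl/fl libraries. That list includes Krt15, which is also a bulge keratin, so the share is not confined to cells between follicles. In TPM, the interfollicular keratins summed to 28455 and 27119 in cKO against 24538 and 22637 in fl/fl, while the stress keratins summed to 3129 and 3029 against 10830 and 14379. Among interfollicular keratins 0 of 11 tested members were called by edgeR. With p under 0.05 before adjustment 4 stood higher and 0 lower, beside 16.5% and 15.6% of all genes. DESeq2 called 4 higher and 0 lower, beside 7.64% and 9.53%. The median log2 fold change of the interfollicular keratins was 0.64, beside 2e-04 over all genes tested.

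The basal pair Krt5 and Krt14 and the suprabasal Krt1 and Krt10 had log2 fold changes between -0.03 and 0.64. Krt5 had 3426 and 3655 TPM in the cKO libraries against 2850 and 2748 TPM in the fl/fl libraries (log2 fold change 0.53 ± 0.23 SE). Krt14 gave a log2 fold change of 0.03 ± 0.27, Krt1 of -0.03 ± 0.32 and Krt10 of 0.64 ± 0.39 (SE). Krt77, a suprabasal type II keratin, stood highest above fl/fl, with 3964 and 3574 TPM in the cKO libraries against 896 and 891 TPM in the fl/fl libraries (2.18 ± 0.25 SE, adjusted p = 0.0656, edgeR's quasi-likelihood test). Its relative Krt78 was at 1.90 ± 0.20 and the basal and bulge keratin Krt15 at 1.62 ± 0.28 (SE). The simple-epithelium keratin Krt18 was scarce and, like Krt6a, lower, with 0.14 and 0.21 TPM in the cKO libraries against 2.34 and 3.09 TPM in the fl/fl libraries.

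**Figure D3:**
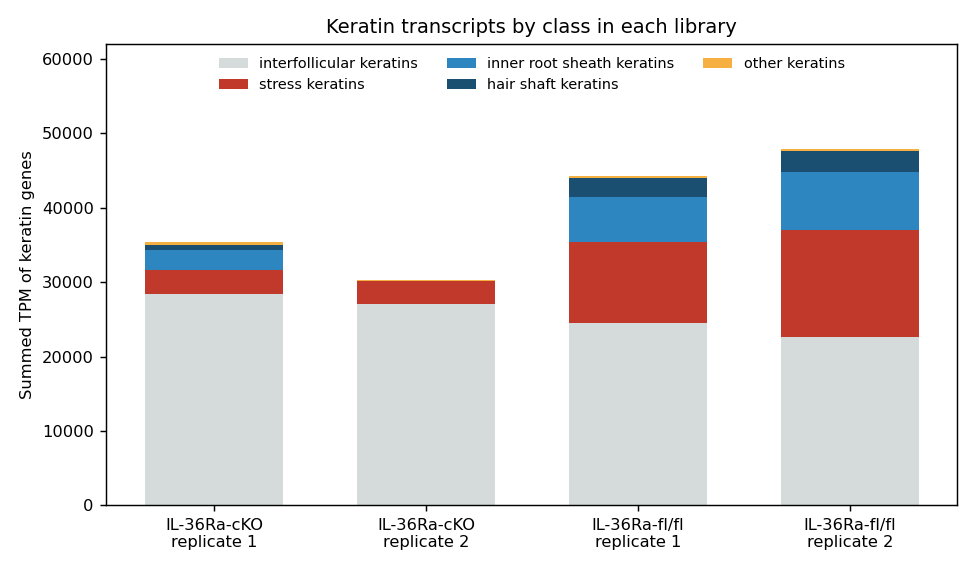
Summed TPM of 54 keratin genes in each library, IL-36Ra-cKO on the left and IL-36Ra-fl/fl on the right, split by class. The stress keratins (red) sum to 3129 and 3029 TPM in cKO against 10830 and 14379 TPM in fl/fl, and inner root sheath and hair shaft keratins nearly vanish in cKO replicate 2.

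Because stress keratins are made in the follicle too, follicle keratins were set beside them. All 7 inner root sheath keratins in the table were lower in both cKO libraries than in either fl/fl library in CPM, and all 16 hair shaft keratins likewise (32.9% of all genes). Before adjustment 0 inner root sheath and 2 hair shaft keratins were lower with p under 0.05 in edgeR, beside 15.6% of all genes. By edgeR 0 of either list were called, and by DESeq2 also 0, beside 9.53% of all genes called lower. Of 12 tested genes listed for hair matrix and inner root sheath, 10 were lower and 1 higher without overlap, beside 32.9% and 34.8%. By edgeR 0 of these 12 were called, and by DESeq2 3 lower and 1 higher, beside 9.53% and 7.64%. Summed TPM of the inner root sheath keratins was 2784 and 0.28 in the cKO libraries against 6116 and 7815 in the fl/fl libraries. That of the hair shaft keratins was 615 and 6.47 against 2499 and 2818. In cKO replicate 2, Krt26, Krt71, Krt72 and Krt73 of the inner root sheath and 10 of the 16 hair shaft keratins had 0 counts. Of the 9 melanocyte genes 8 were also lower without overlap, beside 32.9% of all genes. Only 1 was lower with p under 0.05 before adjustment in edgeR, beside 15.6%. By edgeR 0 melanocyte genes were called and by DESeq2 1 lower, beside 9.53%. The summed TPM of the melanocyte genes was 197 and 15.9 in the cKO libraries against 513 and 489 in the fl/fl libraries. The cKO libraries thus differed in follicle transcripts from the fl/fl libraries and from each other.

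The members did not track the follicle keratins alike. In cKO replicate 2, inner root sheath keratins stood at 0.00402% and hair shaft keratins at 0.243% of the fl/fl mean, against 40.0% and 23.1% in cKO replicate 1. Krt6a stood at 17.3% of the fl/fl mean in cKO replicate 2 and 13.4% in replicate 1, and Krt6b at 16.6% and 13.3%. Krt16 stood at 31.4% and 28.8% in replicates 2 and 1. For these genes the library almost without inner root sheath and hair shaft keratins was thus not the lower of the pair. Krt17 was lower there, at 35.8% against 58.5% of the fl/fl mean in replicate 1, and Krt75 much lower, at 3.79% against 25.5%. As a share of the 5 genes' summed TPM, Krt75 made up 0.155% in cKO replicate 2 against 0.978% to 1.01% in the other 3 libraries. Without cKO replicate 2 the log2 fold changes were -2.68 for Krt6a, -2.69 for Krt6b and -1.55 for Krt16. With cKO replicate 2 as the only cKO library they were -2.39, -2.44 and -1.51. The part of follicle content in the difference from fl/fl was not tested. Both cKO libraries had less inner root sheath and hair shaft keratin than both fl/fl libraries.

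**Figure D4:**
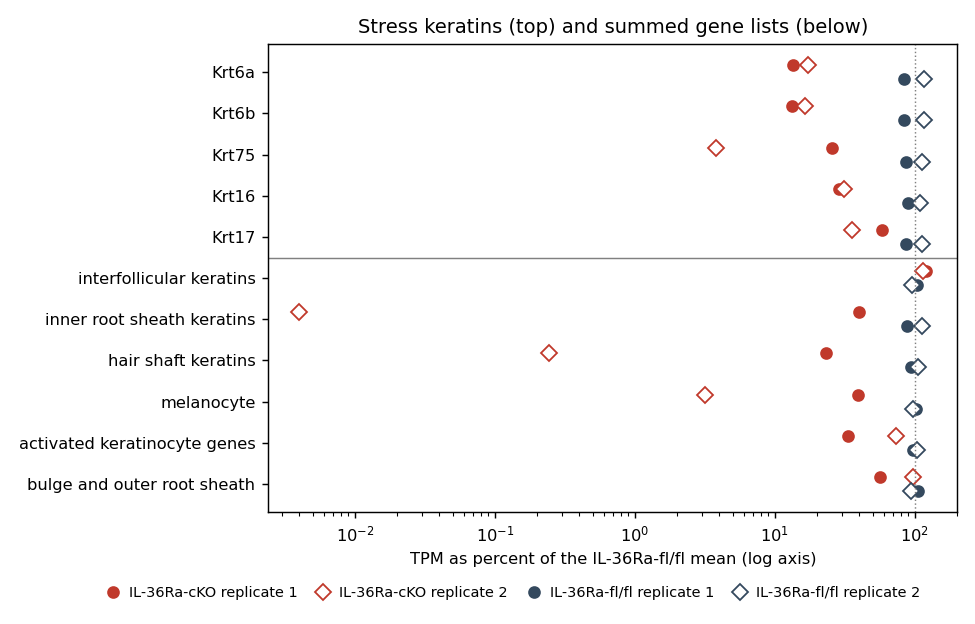
TPM in each library as percent of the IL-36Ra-fl/fl mean (log axis) for the stress keratins (top) and for summed gene lists (below); filled symbols are replicate 1 and open symbols replicate 2, with cKO above fl/fl in each row. Krt6a, Krt6b and Krt16 are alike in both cKO libraries (13.3% to 31.4%), while Krt75 and the follicle keratin lists are much lower in cKO replicate 2 (3.79% for Krt75).

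Genes of the bulge and outer root sheath, where keratins 6, 16 and 17 are also found, were mostly lower too: 10 of 12 tested lay under 0 on the log2 scale and 7 were lower in both cKO libraries than in either fl/fl library (32.9% of all genes). Their summed TPM was 400 and 696 in the cKO libraries against 751 and 671 in the fl/fl libraries, and most of it came from Postn, which encodes the matrix protein periostin and is also made by fibroblasts (220 and 557 TPM in cKO against 511 and 433 TPM in fl/fl). Without Postn the other 11 summed to 180 and 139 TPM in the cKO libraries against 239.98 and 239 TPM in the fl/fl libraries. By edgeR 0 of 12 were called. Before adjustment 1 was higher and 5 were lower (p under 0.05), beside 16.5% and 15.6% of all genes, and the median log2 fold change was -0.25. DESeq2 called 1 higher and 5 lower, beside 7.64% and 9.53% of all genes. Sox9, a transcription factor of the outer root sheath and bulge, had 8.77 and 6.52 TPM in the cKO libraries against 20.4 and 19.4 TPM in the fl/fl libraries (-1.20 ± 0.21 SE). Lgr6, a stem cell marker of the upper follicle, was at 0.88 ± 0.17, and Fzd7 was at -1.45 ± 0.32 (SE).

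Genes that accompany stress keratins in activated keratinocytes mostly lay on the same side. Of 35 tested, 30 lay under 0 on the log2 scale, and their median was -1.63 beside 2e-04 for all genes. The summed TPM of the list was 8495 and 18584 in the cKO libraries against 24575 and 26279 in the fl/fl libraries. S100a8 and S100a9, given below, made up much of that sum in cKO replicate 2 and less of it in cKO replicate 1. By edgeR 0 were called, and 22 were lower and 0 higher with p under 0.05 before adjustment, beside 15.6% and 16.5% of all genes. DESeq2 called 20 lower and 0 higher, beside 9.53% and 7.64%. The gap junction genes Gjb6 and Gjb2, which encode connexins 30 and 26, were at -2.26 ± 0.23 and -2.70 ± 0.30 (SE). Inhba, an activin chain induced in wounds, had 0.86 and 0.47 TPM in the cKO libraries against 7.33 and 7.05 TPM in the fl/fl libraries. Stfa2, a stefin protease inhibitor, was at -1.63 ± 0.17 (SE). The exceptions included both calprotectin chains: S100a8 had 1032 and 5606 TPM in the cKO libraries against 2673 and 4074 TPM in the fl/fl libraries, and S100a9 815 and 3297 against 1169 and 2135. For both, the cKO values in TPM lay on either side of both fl/fl values. S100a8, Gjb2, Egfr and its ligands, Postn, Nfe2l2, Gli1, Gli2 and Hnrnpk, and the untested cytokines named here, were chosen after their values were seen. The same holds for Il1a, Il1b, Il24, Il20ra, Il22ra1 and Ifngr1.

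Among 22 tested ligands and receptors known to drive stress keratin expression, 6 were higher and 6 were lower with p under 0.05 before adjustment, beside 16.5% and 15.6% of all genes. By edgeR 0 were called and by DESeq2 6 higher and 4 lower, beside 7.64% and 9.53%, and the median was -0.18. Tnf was higher in level, at 8.41 and 13.5 TPM in the cKO libraries against 2.38 and 1.73 TPM in the fl/fl libraries (2.61 ± 0.35 SE). Il20rb, a receptor chain for IL-20 and IL-24, was at 1.44 ± 0.21 (SE). Il6 lay the other way, at 0.44 and 0.46 TPM in the cKO libraries against 5.79 and 13.6 TPM in the fl/fl libraries. Also lower at that unadjusted threshold were Il1a (log2 fold change -0.87), Il1b (-1.24) and Il24 (-2.96). Also higher at it were Il20ra (0.785), Il22ra1 (0.75) and Ifngr1 (1.00). The epidermal growth factor receptor Egfr had 17.9 and 18.4 TPM in the cKO libraries against 32.8 and 27.5 TPM in the fl/fl libraries, and its ligand Tgfa 18.8 and 14.9 against 38.6 and 39.7. Btc, which encodes betacellulin, another ligand of this receptor, lay the other way, at 15.4 and 11.9 TPM in the cKO libraries against 4.90 and 2.67 TPM in the fl/fl libraries. Of the other ligands of this receptor in the list, Epgn had 42.1 and 21.6 TPM in the cKO libraries against 52.8 and 65.7 TPM in the fl/fl libraries, and Areg, Hbegf and Ereg overlapped between the groups. Transcripts of Il17a, Il22 and Ifng were at most 0.62 TPM in any library and were not tested.

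Of 25 tested transcription factors and cofactors linked to these genes, 9 were higher and 2 were lower with p under 0.05 before adjustment, beside 16.5% and 15.6% of all genes, and the median was 0.43. By edgeR 0 were called and by DESeq2 4 higher and 1 lower, beside 7.64% and 9.53%. Myc, a growth regulator, was at 0.76 ± 0.17, the AP-1 subunit Fos at 1.32 ± 0.36 and the immediate early factor Egr1 at 1.23 ± 0.37 (SE). Fos had 487 and 278 TPM in the cKO libraries against 158 and 193 TPM in the fl/fl libraries. Nfe2l2, which encodes the oxidative stress factor NRF2, an activator of Krt6, Krt16 and Krt17 in mouse skin, had 55.5 and 65.03 TPM in the cKO libraries against 129 and 91.0 TPM in the fl/fl libraries (-0.68 ± 0.22 SE). Gli1, a hedgehog target, and Gli2, an activator of Krt17, had SEs of 0.65 and 0.59 around log2 fold changes of -1.38 and -1.46.

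Genes whose products anchor or bind keratin filaments were not lower as a group. Of 14 tested, 12 lay above 0 on the log2 scale, and their median over all 14 was 0.37. Before adjustment 5 were higher and 1 was lower (p under 0.05), beside 16.5% and 15.6% of all genes. By edgeR 0 were called and by DESeq2 4 higher and 1 lower, beside 7.64% and 9.53%. Eppk1, epiplakin, was at 1.64 ± 0.44, and the plakins Ppl and Plec were at 0.70 ± 0.20 and 0.63 ± 0.19 (SE). Hnrnpk, whose protein binds keratin 17, had 217 and 222 TPM in the cKO libraries against 489 and 350 TPM in the fl/fl libraries.

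Likeness of pattern was measured as the Euclidean distance between log2 CPM profiles over the 4 libraries, each centred on its mean, among genes with at least 10 CPM on average. A distance of 0 means the same differences between libraries. Krt6a and Krt6b lay 0.0474 apart, Krt16 and Krt17 0.769, Krt6a and Krt16 1.01, and Krt6a and Krt75 2.28. The distance between Krt6a and Krt6b rests on the uncertain split of the reads they share. Outside the 5 genes, Col12a1, a fibril-associated collagen, lay nearest to Krt6a (0.205) and Krt6b (0.240), followed by the matrix protein osteopontin gene Spp1 and the growth factor gene Nrg1 (0.296 to 0.310). For Krt16 they were the Wnt receptor gene Fzd5 (0.138), Specc1 (0.191) and the secreted Wnt inhibitor gene Sfrp1 (0.215). Krt17 was most like the growth factor receptor gene Fgfr1 (0.0805), Glb1l2 (0.0882) and Bpgm (0.101). Krt75 was most like S100a7a (0.276), Aldh1a3 (0.341), which encodes a retinoic acid synthesis enzyme, and Akr1c18 (0.437). S100a7a had 7.54 and 0.80 TPM in the cKO libraries against 31.9 and 39.2 TPM in the fl/fl libraries, a gap within the cKO group like that of Krt75. These are the nearest of 10104 candidate genes over only 4 libraries, and nothing was tested about them.

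**Figure D5:**
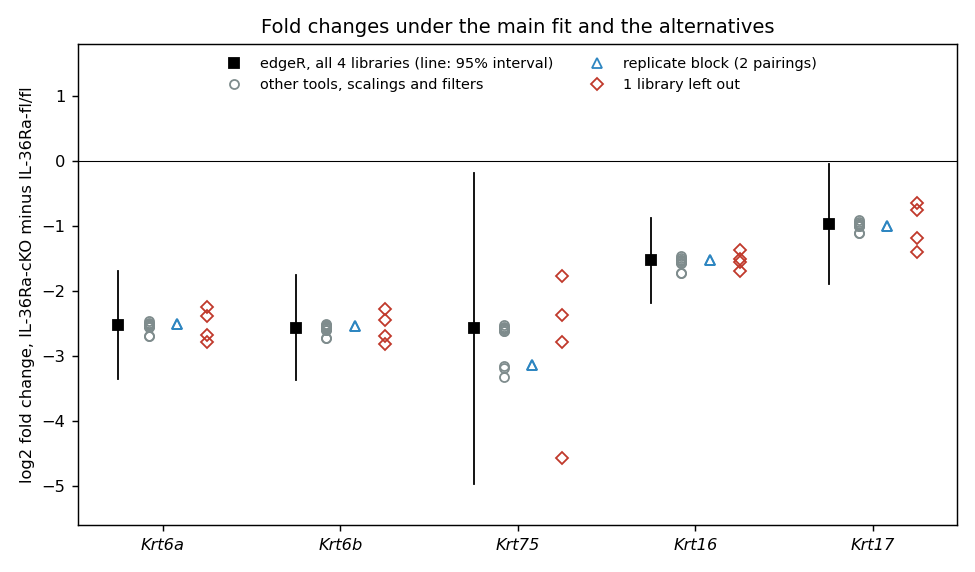
Log2 fold changes (IL-36Ra-cKO minus IL-36Ra-fl/fl) of each stress keratin from edgeR with all 4 libraries (black, with its 95% interval) and under other tools, scalings and filters (grey), the replicate block (blue) and with 1 library left out (red). All values are negative; those of Krt75 spread from -4.58 to -1.77.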

How the data were processed

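Estimated counts (expected counts, not all whole) were deposited by the authors without normalization, per the file headers. Levels between genes use the TPM the authors deposited. FPKM values and a normalized count, a signal scaled per library, were deposited by the authors and not used in any result. The submitters' processing notes name RSEM 1.3.1, Bowtie2 2.3.4.3, the build GRCm39 and DESeq2 1.4.5 without saying which step each served; the annotation, the read length, strand and filters were not given in the sources used. Counts were rounded and tested in R 4.3.3 with edgeR 4.0.16 (quasi-likelihood F test, TMM scaling, default filter, group as the one term) over 14459 genes, with 3499 not tested, Benjamini-Hochberg adjustment and a threshold of 0.05. CPM is TMM-scaled, and log2 CPM has a prior count of 2. With 2 libraries per group, 2 residual degrees of freedom remained. The SE is the log2 fold change divided by the square root of F. Alternatives used DESeq2 1.42.0 and limma 3.58.1, and the fits were tested on simulated data. The simulated libraries varied less than these libraries, so that check cannot show how the tools perform here. Sequences came from GENCODE M21 transcripts, aligned with Biopython 1.88. That build differs from the authors', so no coordinates are given.

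The members and the gene lists were chosen with earlier results of these data known. The rule for named genes took the 5 members, Krt5, Krt14, Krt1 and Krt10, the 3 lowest p-values of each list, and the 3 nearest genes per member. Some genes taken by the rule are not named in the text. Genes outside the rule were named after their values were seen. Sensitivity to replicate pairing is given with the alternatives.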

Additional observations from a re-analysis of the deposited data

How the results depend on the processing

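All 5 stress keratins and the summed Krt6 row kept negative log2 fold changes in each of 16 alternatives, but the call depended on the tool and the scaling. DESeq2 called Krt6a (-2.56), Krt6b (-2.60), their sum (-2.57), Krt16 (-1.56) and Krt17 (-1.01), upper-quartile factors Krt6a (-2.47), Krt6b (-2.50) and their sum (-2.48), and no scaling factors Krt6a (-2.49), Krt6b (-2.53), their sum (-2.51) and Krt16 (-1.49). Genes called higher and lower over the whole table numbered 4 and 0 with edgeR, 1130 and 1410 with DESeq2, 236 and 152 with upper-quartile factors, and 634 and 725 with no scaling factors; among listed genes those counts were 0 and 0 with edgeR, 36 and 44, 9 and 12, and 23 and 34. On log2(TPM + 1) 1 gene was called lower, and the median of all genes shifted to -0.16. Leaving out 1 library gave 0 to 308 genes called higher and 0 to 579 lower, and 0 to 12 and 0 to 65 listed genes; the highest of each came without cKO replicate 1. Log2 fold changes then ran from -2.78 to -2.24 for Krt6a, -2.82 to -2.28 for Krt6b, -2.80 to -2.26 for their sum, -1.70 to -1.37 for Krt16, -1.39 to -0.64 for Krt17 and -4.58 to -1.77 for Krt75. The single library left in a group was assumed to vary like the other group. The cause of these differences in calls was not tested.

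Same-numbered libraries deviated from their group means with a correlation of -0.13 over genes, so the numbers are not shown to pair the libraries. With the replicate block 4 genes were called higher and 0 lower, and Krt6a gave -2.51; it changed no call of a stress keratin. With the pairing crossed, chosen after seeing the data, the replicate block called 0 higher and 0 lower. The lowest value of a stress keratin in any library was 177 counts; whether depth limited a call was not tested.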
